A study of Mus musculus with 12 samples.

Results

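The 32 genes described here encode the enzymes that activate long-chain fatty acids, carry them into mitochondria and oxidise them there or in peroxisomes, together with the nuclear receptor gene Ppara and the ketone body enzyme gene Bdh1. They were chosen by gene symbol from a list of the pathway, and all 32 were found among the 53465 genes counted in each library. Every one of them passed the filter on low counts. They fall into 6 acyl-CoA synthetases, 3 carnitine palmitoyltransferases, 12 enzymes of mitochondrial beta-oxidation, 3 electron transfer genes, 6 peroxisomal enzymes, 1 regulator and 1 ketone body enzyme.

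RNA was sequenced from 3 fractions of sorted cells, eGFP/tdTomato, eGFP and tdTomato, with 4 libraries each, numbered 1, 2, 3 and 5. All 12 libraries came from the brachial and thoracic spinal cord of mice at postnatal day 7, on a C57BL/6 background and with the genotype Aldh1L1-GFP/Olig2-tdTomato, so that the animals carried both reporter genes. Aldh1l1 is a marker gene of astrocytes and Olig2 a transcription factor gene of the oligodendrocyte lineage that some astrocytes also express. Cells were freed with papain and sorted by flow cytometry, and the comparisons ask how fatty acid oxidation genes differ between cells with both reporters and cells with 1 reporter. The labels give neither the sorting gates nor the number of animals behind a library. They call the libraries biological replicates without saying what separates them, so a p-value here reflects variation among libraries, which may be technical.

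Fatty acids are bound to coenzyme A by acyl-CoA synthetases before any further use, in lipid synthesis as well as in oxidation. For oxidation in mitochondria, carnitine palmitoyltransferases move the acyl group onto and off carnitine, for its passage across the inner membrane. Chain-length-specific dehydrogenases begin each round of shortening, and electron transfer flavoprotein passes their electrons to the respiratory chain. Peroxisomes run a parallel pathway for very long or branched chains, and the acetyl-CoA formed can be turned into ketone bodies. In the brain, astrocytes are regarded as the main site of fatty acid oxidation, while oligodendrocytes use activated fatty acids largely for myelin lipids.

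In units of 1e6 reads, the depth counted in genes was 23.9 to 30.3 in eGFP/tdTomato libraries, 12.6 to 27.9 in eGFP libraries and 25.5 to 36.5 in tdTomato libraries. The eGFP library numbered 1 stood apart, with 57.1% of its reads outside annotated genes against 21.2 to 42.5% in the other 11. It was the lowest of the eGFP libraries for 27 of the 32 genes. The 9 astrocyte markers summed to 41500 to 48700 CPM (counts per 1e6 counted reads, scaled by TMM factors) in eGFP/tdTomato libraries, 32200 to 46900 in eGFP libraries and 478 to 623 in tdTomato libraries. The 8 oligodendrocyte markers summed to 1500 to 3160 CPM in eGFP/tdTomato libraries, 382 to 1270 CPM in eGFP libraries and 109000 to 161000 CPM in tdTomato libraries. By these markers eGFP/tdTomato and eGFP, called the astrocytic fractions below, held astrocyte RNA and tdTomato oligodendrocyte RNA. The 5 oligodendrocyte progenitor markers summed to 484 to 1110 CPM in eGFP/tdTomato, 98.3 to 372 CPM in eGFP and 1640 to 2570 CPM in tdTomato libraries. The 8 microglial markers summed to 20.4 to 27.7 CPM in eGFP/tdTomato, 75.2 to 1010 CPM in eGFP and 16.0 to 32.3 CPM in tdTomato libraries. The 6 ependymal markers summed to 7.57 to 14.0 CPM in eGFP/tdTomato, 118 to 263 CPM in eGFP and 1.67 to 2.84 CPM in tdTomato libraries. The 6 mural and fibroblast markers summed to 41.7 to 52.6 CPM in eGFP/tdTomato, 245 to 1510 CPM in eGFP and 5.54 to 12.4 CPM in tdTomato libraries. No gene of these lists was at 0 in all libraries of a fraction. The part of these cells in the differences below was not tested, and fewer cells of a type cannot be told apart from less RNA per cell.

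Genes were called at an adjusted p under 0.05 in edgeR's quasi-likelihood test, fitted over 29361 genes. Between eGFP/tdTomato and eGFP, 3 of the 32 genes were higher in eGFP/tdTomato (Acsbg1, Acsl6 and Ehhadh) and none was lower, where 2.49% of all genes tested were called (0.814% higher and 1.67% lower). Between eGFP/tdTomato and tdTomato, 17 were higher and 5 lower, against 29.2% of all genes tested called (16.8% higher and 12.4% lower). Between eGFP and tdTomato, 13 were higher and 7 lower, against 35.2% of all genes tested (20.4% higher and 14.9% lower). Of all genes called in eGFP against tdTomato, 57.7% were higher in eGFP, and 70.2% when plain library sizes replaced the TMM factors. That share was 46.9% without eGFP/tdTomato library 3, 47.8% without eGFP library 5, 48.4% without eGFP library 1 and 49.4% when a gene needed at least 1 CPM in at least 4 libraries. The count of 3 higher in eGFP/tdTomato than in eGFP lay between 1 and 3 when any single library was left out. It was 1 without eGFP/tdTomato library 1, 2, 3 or 5, eGFP library 2 or 5, or tdTomato library 1. Without eGFP library 1, 8 of the 32 genes were lower in eGFP/tdTomato than in tdTomato, and without eGFP library 3, 11 were lower in eGFP than in tdTomato. A gene that was not called is not shown to be equal between fractions. Each fraction enters 2 of these comparisons, so they are not independent of each other.

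The median log2 fold change of the 32 genes was 0.42 in eGFP/tdTomato against eGFP, where all genes tested had a median of -0.02 and genes averaging at least 5 CPM a median of 0.13. Without eGFP library 1 the median of the 32 genes was 0.24, and that of genes averaging at least 5 CPM was -0.02. In eGFP/tdTomato against tdTomato the 32 genes had a median of 0.81, all genes tested 0.70 and genes averaging at least 5 CPM -0.09. Without eGFP/tdTomato library 3 these were 0.49 for the 32 genes and -0.42 for genes averaging at least 5 CPM. In eGFP against tdTomato the corresponding medians were 0.33 for the 32 genes, 0.79 for all genes tested and -0.20 for those averaging at least 5 CPM. There the median of the 32 genes was 0.09 without eGFP/tdTomato library 3, 0.10 without eGFP library 3 and 0.18 without eGFP library 5, and that of all genes tested was 0.28 without eGFP library 1. Scaling by plain library sizes moved the median of all genes tested to -0.27 in eGFP/tdTomato against eGFP (the 32 genes to 0.23), to 0.80 in eGFP/tdTomato against tdTomato (the 32 genes to 0.93) and to 1.15 in eGFP against tdTomato (the 32 genes to 0.66).

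**Figure D1:**
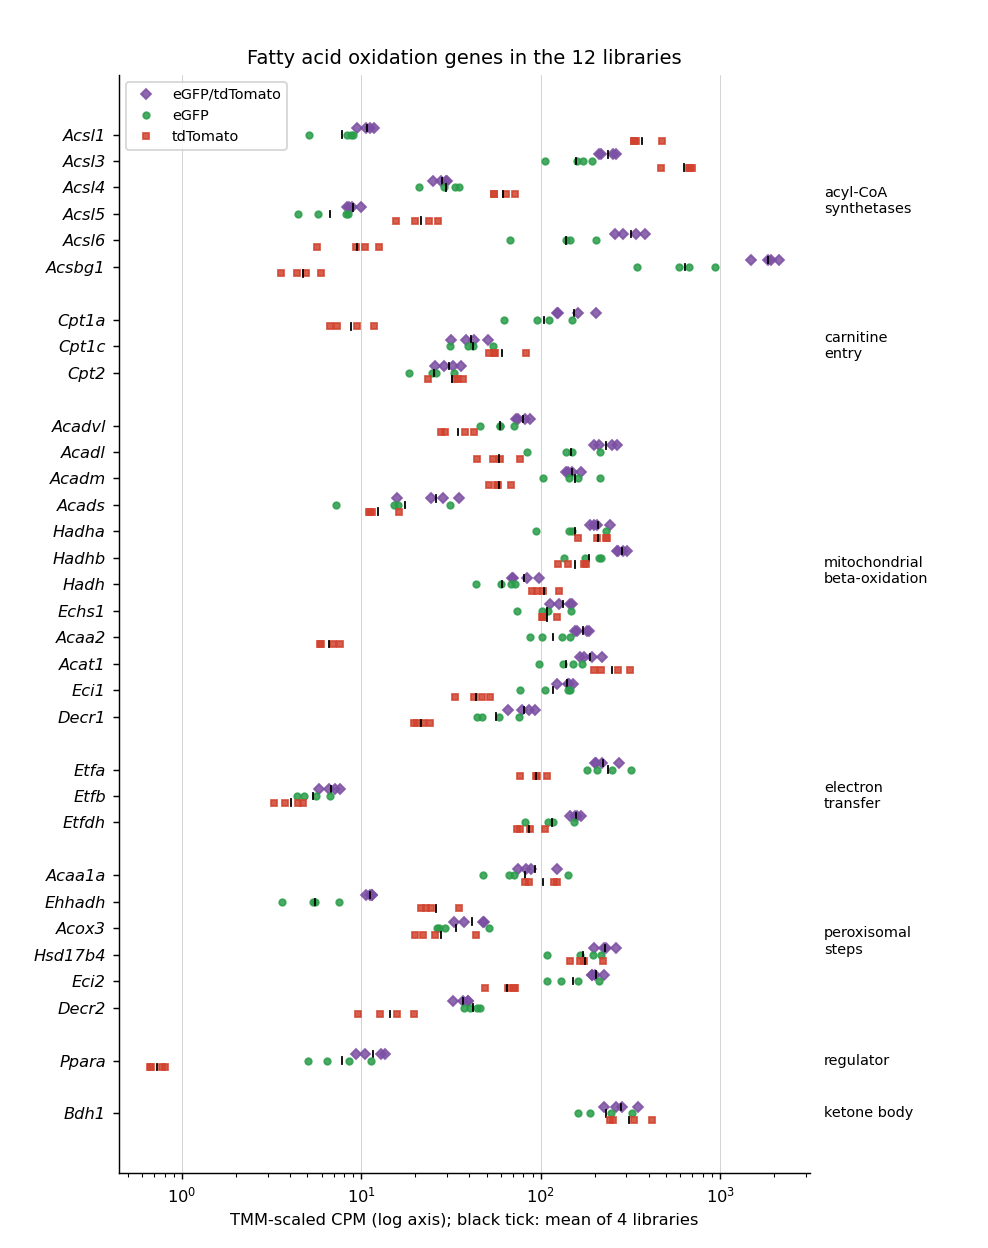
Level of each of the 32 genes in all 12 libraries, as TMM-scaled CPM on a log axis, grouped by role. Each point is a library (eGFP/tdTomato above eGFP above tdTomato) and each black tick a mean of 4 libraries. Acsbg1 lies between 1490 and 2120 CPM in eGFP/tdTomato libraries and between 3.58 and 5.97 CPM in tdTomato libraries, while Bdh1 spans 226 to 349 CPM in eGFP/tdTomato libraries and 243 to 415 CPM in tdTomato libraries.

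The 6 acyl-CoA synthetase genes divided into 2 higher and 4 lower in the astrocytic fractions than in tdTomato, in both comparisons. Shares over all genes tested were 16.8% higher and 12.4% lower in eGFP/tdTomato, and 20.4% higher and 14.9% lower in eGFP. Acsbg1, the bubblegum-type synthetase that acts on long and very long chains, had 1850, 1490, 2120 and 1930 CPM in eGFP/tdTomato libraries, 344, 667, 938 and 592 CPM in eGFP libraries and 5.97, 3.58, 4.91 and 4.35 CPM in tdTomato libraries, given here and below in the order 1, 2, 3, 5. The 3 fractions did not overlap, and every eGFP/tdTomato library exceeded the highest eGFP library. The log2 fold change was 1.54 ± 0.26 (SE; 2.91-fold, adjusted p = 0.00369) in eGFP/tdTomato against eGFP, 8.62 ± 0.36 (adjusted p = 2.91e-10) in eGFP/tdTomato against tdTomato and 7.08 ± 0.34 (adjusted p = 6.53e-10) in eGFP against tdTomato. The first of these calls was lost without the 3 libraries numbered 5 (adjusted p = 0.0838).

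Acsl6, a long-chain synthetase that favours polyunsaturated chains, followed the same order at lower levels. It had 288, 258, 383 and 338 CPM in eGFP/tdTomato libraries, 67.7, 139, 203 and 146 CPM in eGFP libraries and 9.35, 12.5, 10.5 and 5.64 CPM in tdTomato libraries. Here too the fractions did not overlap. In eGFP/tdTomato against eGFP the log2 fold change was 1.19 ± 0.29 (SE; 2.28-fold, adjusted p = 0.0465), a call that held in 10 of 25 other settings of the analysis, with adjusted p between 0.00158 and 0.223. It was lost on leaving out any of 10 single libraries, with adjusted p from 0.0554 without tdTomato library 3 to 0.223 without eGFP/tdTomato library 3. Against tdTomato the log2 fold changes were far larger, at 5.06 ± 0.35 (adjusted p = 2.02e-08) in eGFP/tdTomato and 3.87 ± 0.33 (adjusted p = 1.85e-07) in eGFP.

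Acsl1, the synthetase known for feeding fatty acids into oxidation in muscle and fat tissue, ran the other way. It had 11.8, 9.41, 11.1 and 10.6 CPM in eGFP/tdTomato libraries, 8.30, 5.08, 8.73 and 8.98 CPM in eGFP libraries, and 329, 330, 472 and 339 CPM in tdTomato libraries. The tdTomato libraries lay far above all others. The eGFP/tdTomato libraries lay just above the eGFP libraries, a difference that did not pass the test (log2 fold change 0.46 ± 0.20, adjusted p = 0.43). Acsl1 was 34.3-fold lower in eGFP/tdTomato (log2 fold change -5.10 ± 0.23, adjusted p = 5.23e-10) and 47.2-fold lower in eGFP (-5.56 ± 0.24, adjusted p = 2.66e-10) than in tdTomato. The oligodendrocyte marker sums given above moved in the same direction, and the part of those cells in the difference was not tested.

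Acsl3, Acsl4 and Acsl5, a lipid droplet synthetase, one that prefers arachidonate and a mitochondrial and endoplasmic reticulum form, were lower in both astrocytic fractions too. Acsl3 averaged 236 ± 25 CPM in eGFP/tdTomato, 158 ± 37.6 CPM in eGFP and 629 ± 108 CPM in tdTomato (SD, n = 4 each). Its log2 fold changes against tdTomato were -1.41 in eGFP/tdTomato (adjusted p = 6.11e-05) and -2.0 in eGFP (adjusted p = 1.79e-06). For Acsl4 and Acsl5 the differences from tdTomato were 2.08-fold to 3.23-fold, and no library of the astrocytic fractions reached the lowest tdTomato library. Between eGFP/tdTomato and eGFP, none of the 3 passed the test.

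Per kilobase of principal transcript, Acsbg1 was the most abundant of all 32 genes in eGFP/tdTomato and in eGFP, and Acsl3 in tdTomato, with either of the gene lengths used. Acsbg1 made up 75.9 to 77.5% of the summed level of the 6 synthetase genes in eGFP/tdTomato libraries, 65.6 to 71.6% in eGFP libraries and 0.439 to 0.753% in tdTomato libraries. In tdTomato libraries Acsl3 made up 53.1 to 61.8% and Acsl1 29.9 to 38.9%. Per kilobase of all annotated exons the share of Acsbg1 was 83.1 to 85.5% in eGFP/tdTomato, 71.1 to 79.8% in eGFP and 0.475 to 0.819% in tdTomato libraries. The share of Acsl6 in eGFP/tdTomato libraries depended on the length taken, at 13.4 to 15.4% by principal transcript and 4.78 to 5.57% by all exons. The summed level was 834 ± 116 CPM per kilobase of principal transcript in eGFP/tdTomato, 323 ± 112 in eGFP and 275 ± 40.0 in tdTomato (SD, n = 4 each). The sums overlapped between eGFP (182 to 455) and tdTomato (223 to 320).

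**Figure D2:**
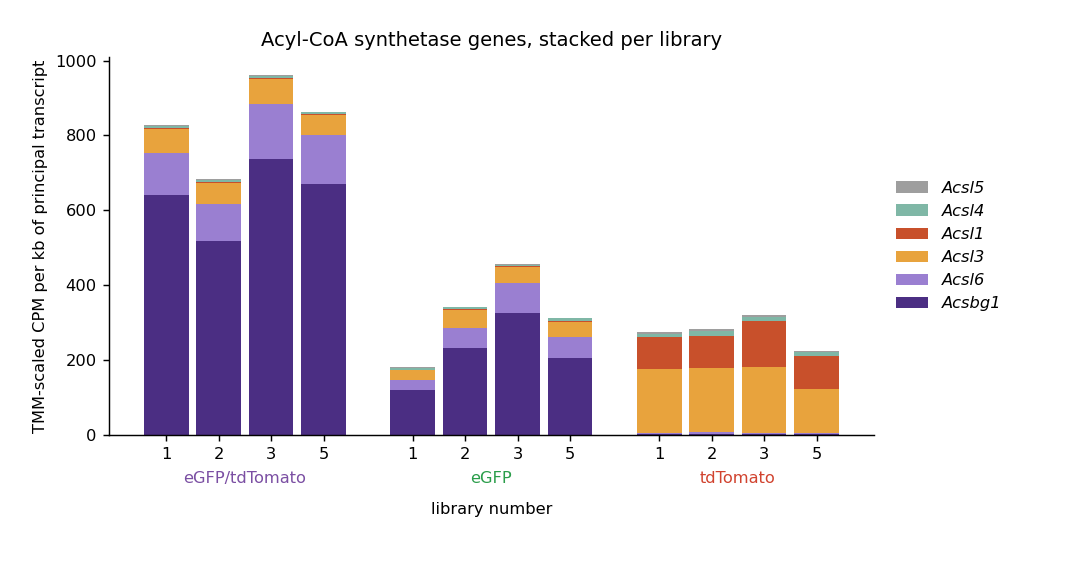
Level of the 6 acyl-CoA synthetase genes in each library, stacked, in TMM-scaled CPM per kilobase of principal transcript. Bars are single libraries, numbered below, from eGFP/tdTomato on the left to tdTomato on the right. Acsbg1 fills 75.9 to 77.5% of each eGFP/tdTomato bar, and Acsl3 and Acsl1 fill nearly all of each tdTomato bar.

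The promoter windows of the 3 synthetase genes with the most extreme differences are shown because the genes share a reaction but not a direction. They are RefSeq windows of build GRCm38.p6, from 250 bases before to 50 bases after an annotated start, read on the gene's own strand. Capitals mark AGGTCA, the half-site that nuclear receptors of the PPAR and RXR kind bind, or TGACCT on the other strand. The windows are chr9:54661836-54662135 (minus strand) for Acsbg1, chr11:54303574-54303873 (plus strand) for the first of 3 Acsl6 starts, and chr8:46470787-46471086 (plus strand) for the first of 2 Acsl1 starts.
Acsbg1: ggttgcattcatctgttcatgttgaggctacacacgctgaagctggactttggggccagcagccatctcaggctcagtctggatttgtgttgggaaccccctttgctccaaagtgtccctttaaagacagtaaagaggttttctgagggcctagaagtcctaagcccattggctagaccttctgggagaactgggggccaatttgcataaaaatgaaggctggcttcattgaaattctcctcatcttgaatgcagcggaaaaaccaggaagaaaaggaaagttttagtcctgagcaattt
Acsl6: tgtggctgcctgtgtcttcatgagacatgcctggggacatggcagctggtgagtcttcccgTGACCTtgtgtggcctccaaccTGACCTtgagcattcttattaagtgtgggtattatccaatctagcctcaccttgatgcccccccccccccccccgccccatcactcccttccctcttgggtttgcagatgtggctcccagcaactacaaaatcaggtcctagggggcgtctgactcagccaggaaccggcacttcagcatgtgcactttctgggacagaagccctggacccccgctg
Acsl1: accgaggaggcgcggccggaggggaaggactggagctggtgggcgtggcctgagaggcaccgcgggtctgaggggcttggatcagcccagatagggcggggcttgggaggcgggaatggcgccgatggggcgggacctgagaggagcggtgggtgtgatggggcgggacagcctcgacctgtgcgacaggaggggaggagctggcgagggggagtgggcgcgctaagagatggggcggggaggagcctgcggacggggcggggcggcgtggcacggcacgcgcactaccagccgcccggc
The Acsl6 window shown holds the half-site at 2 places and the other windows shown hold none. The later Acsl6 and Acsl1 windows, not shown, hold none either. Acsbg1 has 2 CpG dinucleotides in its window, the Acsl6 windows 5, 36 and 1, and the 2 Acsl1 windows 30 and 4. The median over all 32851 windows was 7 and that over the 32 windows of these genes 17. AGGTCA was found in 16.3% of all windows and in 6 of the 32 windows of these genes (18.8%; 28 of the genes had a window). The direct repeat AGGTCANAGGTCA, searched on both strands like the half-site it contains, was in 0.0396% of all windows and in none of theirs. These matches describe letters, not binding.

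In carnitine entry, the rate-limiting step of mitochondrial oxidation, the astrocytic fractions differed from tdTomato in the level of Cpt1a. Cpt1a, the widely expressed carnitine palmitoyltransferase of the outer mitochondrial membrane, had 123, 125, 204 and 161 CPM in eGFP/tdTomato libraries, 62.3, 111, 150 and 95.6 CPM in eGFP libraries and 6.68, 7.28, 11.8 and 9.41 CPM in tdTomato libraries. The astrocytic fractions overlapped with each other and lay wholly above tdTomato. Its log2 fold change was 4.12 ± 0.30 (17.4-fold, adjusted p = 3.77e-08) in eGFP/tdTomato against tdTomato and 3.57 ± 0.29 (11.9-fold, adjusted p = 1.27e-07) in eGFP against tdTomato, and 0.55 ± 0.26 (adjusted p = 0.525) in eGFP/tdTomato against eGFP.

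Cpt1c, the neuronal isoform, which has little transferase activity and lies in the endoplasmic reticulum, had 31.5, 42.3, 50.9 and 38.2 CPM in eGFP/tdTomato libraries, 31.1, 39.3, 54.4 and 41.6 CPM in eGFP libraries and 54.5, 51.5, 82.6 and 55.7 CPM in tdTomato libraries. The eGFP/tdTomato values stayed just under the lowest tdTomato value, and the eGFP values reached into the tdTomato range. Neither difference from tdTomato passed the test (log2 fold changes -0.58, adjusted p = 0.0567, in eGFP/tdTomato and -0.55, adjusted p = 0.0609, in eGFP), but 13 of 25 other settings called Cpt1c lower in eGFP/tdTomato and 11 in eGFP. Neuron markers (7 genes) summed to 29.7 to 49.3 CPM in eGFP/tdTomato, 46.9 to 62.0 CPM in eGFP and 428 to 646 CPM in tdTomato libraries. Gene by gene they were mixed, with 4 lower and 3 not called in eGFP/tdTomato against tdTomato (median log2 fold change -0.73). In eGFP against tdTomato 2 were lower, 1 was higher and 4 were not called (median 0.33). The part of neurons in the Cpt1c levels was not tested.

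Of the summed Cpt1a and Cpt1c level per kilobase of principal transcript, Cpt1a made up 65.6 to 73.2% in eGFP/tdTomato libraries, 56.5 to 64.5% in eGFP libraries and 7.35 to 9.85% in tdTomato libraries. Cpt2, the inner-membrane transferase, averaged 30.6 ± 4.37 CPM in eGFP/tdTomato, 25.5 ± 5.90 CPM in eGFP and 32.1 ± 5.87 CPM in tdTomato (SD, n = 4 each) and passed no test. The muscle isoform gene Cpt1b was too low to be tested. The Cpt1a promoter window, chr19:3323051-3323350 (plus strand), is shown as that of the carnitine gene with a difference, with the same half-site in capitals, which it holds once.
Cpt1a: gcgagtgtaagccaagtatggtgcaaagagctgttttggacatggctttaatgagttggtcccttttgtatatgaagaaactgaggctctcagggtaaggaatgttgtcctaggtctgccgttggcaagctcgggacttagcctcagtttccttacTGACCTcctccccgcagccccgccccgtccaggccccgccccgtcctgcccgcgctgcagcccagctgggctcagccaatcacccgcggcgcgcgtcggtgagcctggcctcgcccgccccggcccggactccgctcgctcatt

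**Figure D3:**
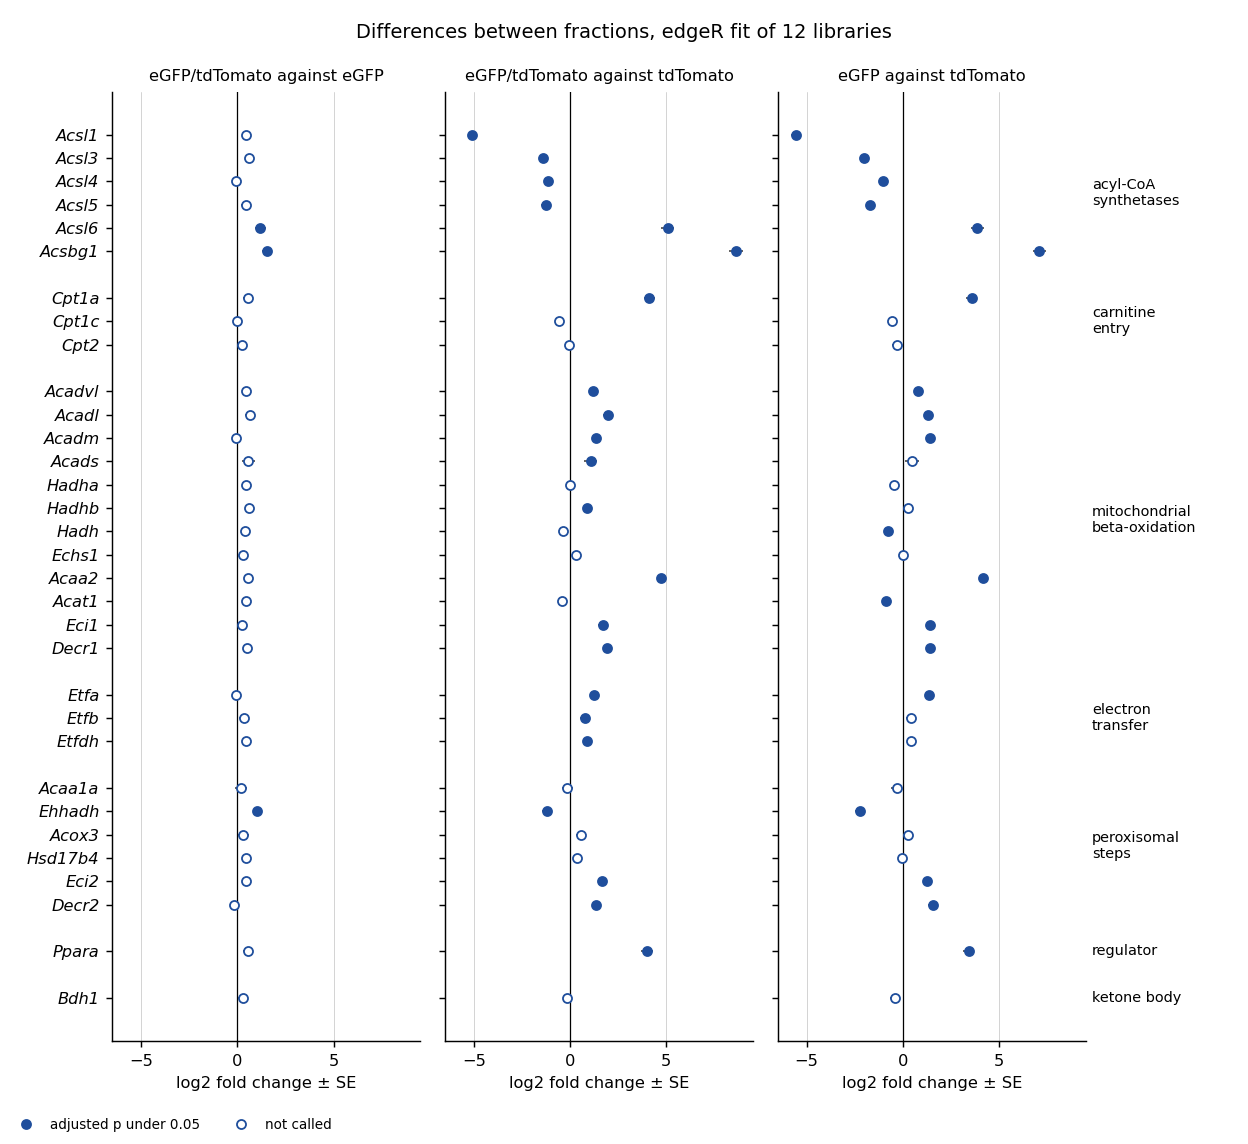
Log2 fold change of each of the 32 genes in the 3 comparisons, with its SE as a line, where a positive value is a higher level in the fraction named first. Filled points have an adjusted p under 0.05 in the edgeR fit of 12 libraries. Against eGFP 3 points are filled, all of them positive, and against tdTomato the points run from -5.10 for Acsl1 to 8.62 for Acsbg1 in the eGFP/tdTomato fraction.

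Among the 12 genes of mitochondrial beta-oxidation, 8 were higher and none lower in eGFP/tdTomato than in tdTomato, with a median log2 fold change of 1.13. In eGFP against tdTomato 6 were higher and 2 lower (median 0.63). Over all genes tested, 16.8% were higher and 12.4% lower in the first comparison, and 20.4% and 14.9% in the second. No gene of the 12 passed the test between eGFP/tdTomato and eGFP (median 0.44). Acaa2, a thiolase of mitochondrial beta-oxidation, differed most. It had 186, 156, 182 and 159 CPM in eGFP/tdTomato libraries, 86.7, 146, 132 and 101 CPM in eGFP libraries and 6.95, 5.93, 7.59 and 5.90 CPM in tdTomato libraries. The eGFP/tdTomato libraries all lay above the eGFP libraries and both far above tdTomato. Its log2 fold change was 4.70 ± 0.21 (26.0-fold, adjusted p = 5.23e-10) in eGFP/tdTomato and 4.14 ± 0.21 (17.7-fold, adjusted p = 9.22e-10) in eGFP, each against tdTomato, and 0.56 ± 0.18 (adjusted p = 0.174) between eGFP/tdTomato and eGFP.

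Acadl, the long-chain acyl-CoA dehydrogenase, had 210, 197, 265 and 248 CPM in eGFP/tdTomato libraries, 83.4, 149, 215 and 139 CPM in eGFP libraries and 59.3, 43.9, 76.4 and 53.9 CPM in tdTomato libraries. The astrocytic fractions overlapped with each other and not with tdTomato. The log2 fold change was 1.98 ± 0.26 (adjusted p = 2.15e-05) in eGFP/tdTomato and 1.33 ± 0.25 (adjusted p = 0.000687) in eGFP, each against tdTomato.

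In eGFP/tdTomato against tdTomato, fold changes of the other chain-length dehydrogenases were smaller. Acadm, for medium chains, was 2.55-fold higher in eGFP/tdTomato (adjusted p = 8.61e-05) and 2.67-fold higher in eGFP (adjusted p = 5.06e-05) than in tdTomato. For Acadvl, the very-long-chain enzyme, the excess over tdTomato was 2.30-fold in eGFP/tdTomato (adjusted p = 0.000108) and 1.71-fold in eGFP (adjusted p = 0.00367), and the call in eGFP was lost without eGFP/tdTomato library 3 (adjusted p = 0.0625) or eGFP library 5 (0.0724). Dvl2 on the other strand covers 42.9% of the Acadvl exon length, and as the strand setting of the counting is not given in the sources used here, reads of this pair cannot be told apart. Acads, for short chains, averaged 25.9 ± 8.0 CPM in eGFP/tdTomato, 17.4 ± 10.0 CPM in eGFP and 12.4 ± 2.42 CPM in tdTomato (SD, n = 4 each). Its call in eGFP/tdTomato against tdTomato (2.08-fold, adjusted p = 0.0342) held in 15 of 25 other settings, and leaving out any of 7 single libraries lost it, with adjusted p of 0.0604 to 0.248. Per kilobase, Acadl was 45.6 to 52.1% of the summed level of these 4 genes in eGFP/tdTomato libraries, 35.6 to 46.6% in eGFP libraries and 28.7 to 41.6% in tdTomato libraries.

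Auxiliary enzymes for unsaturated chains were also higher in the astrocytic fractions. Eci1, the enoyl-CoA isomerase, averaged 140 ± 12.4 CPM in eGFP/tdTomato, 117 ± 32.8 CPM in eGFP and 43.7 ± 7.86 CPM in tdTomato (SD, n = 4 each). Decr1, the dienoyl-CoA reductase, averaged 80.6 ± 11.7 CPM in eGFP/tdTomato, 56.3 ± 14.1 CPM in eGFP and 21.5 ± 1.97 CPM in tdTomato. In both genes every astrocytic library lay above every tdTomato library, and eGFP/tdTomato exceeded tdTomato 3.20-fold in Eci1 (adjusted p = 1.70e-05) and 3.75-fold in Decr1 (adjusted p = 1.60e-06).

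Hadha and Hadhb encode the subunits of the mitochondrial trifunctional protein. They lie head to head on chromosome 5, with 85 bases between their annotated ends, and did not follow each other in eGFP/tdTomato against tdTomato. In eGFP/tdTomato against eGFP their log2 fold changes were 0.44 and 0.61, and in eGFP against tdTomato -0.44 and 0.26. None of these 4 values passed the test. Hadha had 198, 187, 243 and 205 CPM in eGFP/tdTomato libraries, 93.5, 149, 230 and 144 CPM in eGFP libraries and 232, 206, 235 and 161 CPM in tdTomato libraries. Hadhb had 303, 267, 287 and 270 CPM in eGFP/tdTomato libraries, 135, 217, 210 and 177 CPM in eGFP libraries and 141, 178, 175 and 124 CPM in tdTomato libraries. The eGFP/tdTomato and tdTomato ranges overlapped for Hadha and were separate for Hadhb. Hadhb was 1.82-fold higher in eGFP/tdTomato than in tdTomato (adjusted p = 0.00188), a call lost without eGFP/tdTomato library 3 (adjusted p = 0.0906), and the log2 fold change of Hadha was 0.00 ± 0.23 (adjusted p = 0.997). The ratio of Hadha to Hadhb CPM was 0.655 to 0.850 in eGFP/tdTomato libraries, 0.686 to 1.10 in eGFP libraries and 1.16 to 1.65 in tdTomato libraries, with no tdTomato library under any of the others. This ratio does not depend on the scaling of a library.

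The Hadhb window, chr5:30155003-30155302 (plus strand), is shown because it shares 228 bases with the Hadha window on the other strand. Capitals mark GGGCGG, the GC box, or CCGCCC on the other strand. GGGCGG was found in 35.7% of all windows and in 25 of the 32 windows of these genes (78.1%), and the Hadhb window holds 4. The windows of these genes also held more CpG dinucleotides, with a median of 17 against 7 in all windows. The part of this in the GGGCGG shares was not tested.
Hadhb: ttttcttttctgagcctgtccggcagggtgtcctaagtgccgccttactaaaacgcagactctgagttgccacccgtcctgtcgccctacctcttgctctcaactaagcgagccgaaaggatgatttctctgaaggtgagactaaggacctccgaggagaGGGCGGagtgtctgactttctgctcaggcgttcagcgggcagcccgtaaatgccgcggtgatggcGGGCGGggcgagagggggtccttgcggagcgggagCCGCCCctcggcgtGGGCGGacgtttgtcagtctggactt

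Hadh and Acat1, the medium- and short-chain hydroxyacyl-CoA dehydrogenase and the acetoacetyl-CoA thiolase, were the 2 genes of this group lower in eGFP than in tdTomato. Hadh averaged 80.2 ± 13.5 CPM in eGFP/tdTomato, 61.0 ± 12.7 CPM in eGFP and 104 ± 16.6 CPM in tdTomato (SD, n = 4 each). Acat1 averaged 188 ± 22.9 CPM in eGFP/tdTomato, 138 ± 31.0 CPM in eGFP and 249 ± 53.0 CPM in tdTomato. In eGFP against tdTomato Hadh was 1.70-fold lower (adjusted p = 0.00595) and Acat1 1.80-fold lower (adjusted p = 0.0039), with both fractions separate in both genes. In eGFP/tdTomato against tdTomato neither passed the test (adjusted p = 0.17 and 0.154), but without eGFP library 1 both were called lower (adjusted p = 0.00822 for Hadh and 0.0121 for Acat1). Echs1, the enoyl-CoA hydratase for short chains, passed no test, with log2 fold changes of 0.31, 0.31 and 0.00 in the 3 comparisons.

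All 3 electron transfer genes were higher in eGFP/tdTomato than in tdTomato, and 1 of them, Etfa, in eGFP. Among all genes tested, 16.8% were higher in eGFP/tdTomato than in tdTomato, and 20.4% in eGFP. Etfa, the alpha subunit of electron transfer flavoprotein, had 272, 219, 201 and 202 CPM in eGFP/tdTomato libraries, 182, 317, 206 and 248 CPM in eGFP libraries and 93.6, 108, 95.5 and 76.9 CPM in tdTomato libraries. The eGFP/tdTomato values lay inside the eGFP range, and both lay above tdTomato. The difference from tdTomato was 2.39-fold in eGFP/tdTomato (adjusted p = 0.000129) and 2.55-fold in eGFP (adjusted p = 5.95e-05). Etfa ranked second of the 32 genes per kilobase in both astrocytic fractions.

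Etfdh, the oxidoreductase that hands these electrons to ubiquinone, had 167, 156, 159 and 145 CPM in eGFP/tdTomato libraries, 81.3, 153, 117 and 109 CPM in eGFP libraries and 76.6, 105, 86.9 and 73.2 CPM in tdTomato libraries. The eGFP/tdTomato libraries lay above all tdTomato libraries, and the eGFP libraries overlapped with both. It was 1.83-fold higher in eGFP/tdTomato than in tdTomato (log2 fold change 0.87 ± 0.19, adjusted p = 0.00253), a call lost without eGFP/tdTomato library 3 (adjusted p = 0.109) or eGFP library 5 (0.0567). Etfb, the beta subunit, had only 6.80 ± 0.770 CPM in eGFP/tdTomato, 5.34 ± 1.01 CPM in eGFP and 4.05 ± 0.671 CPM in tdTomato (SD, n = 4 each), and other annotated genes overlap 58.2% of its exon length. Its call in eGFP/tdTomato against tdTomato (1.68-fold, adjusted p = 0.0364) held in 8 of 25 other settings, and without eGFP/tdTomato library 3 the log2 fold change was 0.42 (adjusted p = 0.325).

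Of the 6 peroxisomal genes, Eci2 and Decr2 were higher and Ehhadh lower in both astrocytic fractions than in tdTomato, and 3 passed no test. Among all genes tested, 16.8% were higher and 12.4% lower in eGFP/tdTomato than in tdTomato, and 20.4% and 14.9% in eGFP. Ehhadh, the peroxisomal bifunctional enzyme of the classical straight-chain pathway, had 11.4, 11.2, 11.4 and 10.6 CPM in eGFP/tdTomato libraries, 3.62, 5.36, 7.53 and 5.51 CPM in eGFP libraries and 24.4, 21.6, 35.0 and 23.0 CPM in tdTomato libraries. The 3 fractions were separate, with eGFP/tdTomato between eGFP and tdTomato. The log2 fold change was 1.02 ± 0.23 (2.02-fold, adjusted p = 0.0281) in eGFP/tdTomato against eGFP, -1.22 ± 0.23 (adjusted p = 0.000684) in eGFP/tdTomato against tdTomato and -2.23 ± 0.24 (adjusted p = 2.19e-06) in eGFP against tdTomato. The call against eGFP held in 14 of 25 other settings, and any of 7 single libraries, left out, lost it, from an adjusted p of 0.0519 without tdTomato library 1 to 0.117 without eGFP library 5. Ehhadh was the one gene of the 32 called in all 3 comparisons with eGFP/tdTomato in the middle. The oligodendrocyte marker sums shared this order (CPM of 382 to 1270 in eGFP, 1500 to 3160 in eGFP/tdTomato and 109000 to 161000 in tdTomato). The part of those cells in the Ehhadh levels was not tested.

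Eci2, an enoyl-CoA isomerase found in peroxisomes and mitochondria, had 201, 193, 225 and 194 CPM in eGFP/tdTomato libraries, 108, 161, 210 and 129 CPM in eGFP libraries and 71.8, 70.8, 65.9 and 49.1 CPM in tdTomato libraries. It was 3.15-fold higher in eGFP/tdTomato (adjusted p = 1.41e-05) and 2.36-fold higher in eGFP (adjusted p = 0.000198) than in tdTomato, with no overlap. Decr2, the peroxisomal dienoyl-CoA reductase, had 39.2, 36.8, 39.1 and 32.3 CPM in eGFP/tdTomato libraries, 40.3, 44.1, 46.0 and 37.5 CPM in eGFP libraries and 12.7, 19.5, 15.8 and 9.52 CPM in tdTomato libraries. The astrocytic fractions overlapped with each other and lay above tdTomato, 2.56-fold in eGFP/tdTomato (adjusted p = 8.93e-05) and 2.92-fold in eGFP (adjusted p = 2.33e-05).

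Hsd17b4, the bifunctional enzyme for very long and branched chains, averaged 229 ± 25.5 CPM in eGFP/tdTomato, 171 ± 47.2 CPM in eGFP and 177 ± 31.9 CPM in tdTomato (SD, n = 4 each) and passed no test. Acox3, an oxidase of branched chains, averaged 41.5 ± 7.63 CPM in eGFP/tdTomato, 33.5 ± 11.8 CPM in eGFP and 27.9 ± 10.7 CPM in tdTomato and overlapped between all fractions. Acaa1a, the peroxisomal thiolase, averaged 92.1 ± 21.0 CPM in eGFP/tdTomato, 81.5 ± 40.9 CPM in eGFP and 102 ± 21.7 CPM in tdTomato. Its close copy Acaa1b can share reads with it, so this level is uncertain.

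Ppara encodes the fatty acid-sensing nuclear receptor that governs many genes of this pathway in liver. It had 10.5, 12.9, 13.5 and 9.37 CPM in eGFP/tdTomato libraries, 8.47, 6.46, 11.3 and 5.06 CPM in eGFP libraries and 0.802, 0.662, 0.669 and 0.775 CPM in tdTomato libraries. The astrocytic fractions overlapped, and the tdTomato libraries were under 1 CPM. It was 15.9-fold higher in eGFP/tdTomato (log2 fold change 3.99 ± 0.31, adjusted p = 6.89e-08) and 10.7-fold higher in eGFP (3.42 ± 0.30, adjusted p = 2.85e-07) than in tdTomato. In eGFP/tdTomato against eGFP the log2 fold change was 0.56 ± 0.27 (adjusted p = 0.515).

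Of 12 other genes of nuclear receptors, coactivators and known PPAR targets, 8 were higher and none lower in eGFP/tdTomato than in tdTomato, and 7 and none in eGFP. Shares over all genes tested were 16.8% higher and 12.4% lower in eGFP/tdTomato than in tdTomato, and 20.4% and 14.9% in eGFP. Ppargc1a, a coactivator of mitochondrial gene programmes, averaged 116 ± 14.5 CPM in eGFP/tdTomato, 81.8 ± 15.7 CPM in eGFP and 2.35 ± 0.285 CPM in tdTomato (SD, n = 4 each). Angptl4, a secreted inhibitor of lipoprotein lipase, averaged 98.4 ± 17.4 CPM in eGFP/tdTomato, 59.1 ± 31.5 CPM in eGFP and 0.843 ± 0.702 CPM in tdTomato. Pdk4, a kinase that restrains pyruvate oxidation, averaged 26.4 ± 6.23 CPM in eGFP/tdTomato, 17.0 ± 12.2 CPM in eGFP and 0.803 ± 0.105 CPM in tdTomato. None of the 12 passed the test between eGFP/tdTomato and eGFP.

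Bdh1, the mitochondrial enzyme that interconverts acetoacetate and beta-hydroxybutyrate, had 226, 264, 349 and 285 CPM in eGFP/tdTomato libraries, 161, 247, 322 and 189 CPM in eGFP libraries and 254, 329, 415 and 243 CPM in tdTomato libraries. The 3 fractions overlapped. Its log2 fold change was 0.29 ± 0.24 (adjusted p = 0.94) in eGFP/tdTomato against eGFP, -0.14 ± 0.24 (adjusted p = 0.65) in eGFP/tdTomato against tdTomato and -0.43 ± 0.24 (adjusted p = 0.169) in eGFP against tdTomato. The last became a call (lower in eGFP) without eGFP library 3 (adjusted p = 0.0447) or eGFP/tdTomato library 3 (0.047). Per kilobase Bdh1 ranked second of the 32 genes in tdTomato. A gene on the other strand overlaps 13.7% of its exon length.

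The 7 other ketone body genes split, with 3 higher, 3 lower and 1 not called in each astrocytic fraction against tdTomato. Shares over all genes tested were 16.8% higher and 12.4% lower in eGFP/tdTomato, and 20.4% higher and 14.9% lower in eGFP. Slc16a1, the monocarboxylate transporter that carries lactate and ketone bodies, was 3.99-fold higher in eGFP/tdTomato (adjusted p = 1.92e-05) and 3.35-fold higher in eGFP (adjusted p = 6.31e-05) than in tdTomato. Acat2, the cytosolic thiolase that begins sterol synthesis, was 3.46-fold lower in eGFP/tdTomato (adjusted p = 9.94e-06) and 3.47-fold lower in eGFP (adjusted p = 8.87e-06). None of the 7 passed the test between eGFP/tdTomato and eGFP.

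Other genes of the pathway were counted in lists kept by role. Beside these counts, 16.8% of all genes tested were higher and 12.4% lower in eGFP/tdTomato than in tdTomato, and 20.4% and 14.9% in eGFP. Of 12 further acyl-CoA synthetase and fatty acid transport protein genes, 5 were higher and 2 lower in eGFP/tdTomato than in tdTomato, and 6 were higher and 3 lower in eGFP. Slc27a1, a fatty acid transport protein with synthetase activity, averaged 819 ± 165 CPM in eGFP/tdTomato, 431 ± 189 CPM in eGFP and 11.9 ± 3.91 CPM in tdTomato (SD, n = 4 each). Of 6 other carnitine genes tested, 3 were higher and 1 lower in eGFP/tdTomato than in tdTomato, among them Slc25a20, the carnitine-acylcarnitine carrier (2.45-fold, adjusted p = 5.24e-05), and Crot, the peroxisomal carnitine octanoyltransferase (4.24-fold, adjusted p = 1.43e-05). The carnitine importer gene Slc22a5 was lower (2.26-fold, adjusted p = 0.000894).

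Of 12 other mitochondrial beta-oxidation genes, 8 were higher and none lower in eGFP/tdTomato than in tdTomato, and 5 and none in eGFP. Hsd17b10 and Acadsb, which act on short and branched chains, were 2.90-fold and 2.80-fold higher in eGFP/tdTomato (adjusted p = 5.04e-05 and 3.85e-05). Etfbkmt, the methyltransferase of the Etfb protein, was the one gene of this list called between eGFP/tdTomato and eGFP (2.82-fold lower in eGFP/tdTomato, adjusted p = 0.00701).

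Of 16 other peroxisomal genes, 5 were higher and none lower in eGFP/tdTomato than in tdTomato, and 5 and 2 in eGFP. Abcd2, the peroxisomal importer of very long chains, had 224, 176, 207 and 174 CPM in eGFP/tdTomato libraries, 74.6, 134, 122 and 82.3 CPM in eGFP libraries and 0.757, 1.20, 1.49 and 1.51 CPM in tdTomato libraries. The fractions were separate, as for Acsbg1. Its log2 fold change was 0.92 ± 0.22 (1.89-fold, adjusted p = 0.0409) in eGFP/tdTomato against eGFP and 7.28 ± 0.30 (adjusted p = 2.70e-10) in eGFP/tdTomato against tdTomato. The call between eGFP/tdTomato and eGFP held in 13 of 25 other settings, with an adjusted p of up to 0.303.

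Mitochondrial genes outside the pathway were counted in the same way. Over all genes tested, 16.8% were higher and 12.4% lower in eGFP/tdTomato than in tdTomato, and 20.4% and 14.9% in eGFP. Of 26 genes of the citric acid cycle, protein import and mitochondrial maintenance, 3 were higher and 2 lower in eGFP/tdTomato than in tdTomato (median log2 fold change 0.13), and 1 was higher and 5 lower in eGFP (median -0.23). Idh3g, a subunit of isocitrate dehydrogenase, was 2.76-fold higher in eGFP/tdTomato (adjusted p = 1.27e-05), and Tomm20, an import receptor of the outer membrane, 2.76-fold lower (adjusted p = 2.45e-05). None of the 26 passed the test between eGFP/tdTomato and eGFP. The difference between this list and the beta-oxidation genes was not tested.

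**Figure D4:**
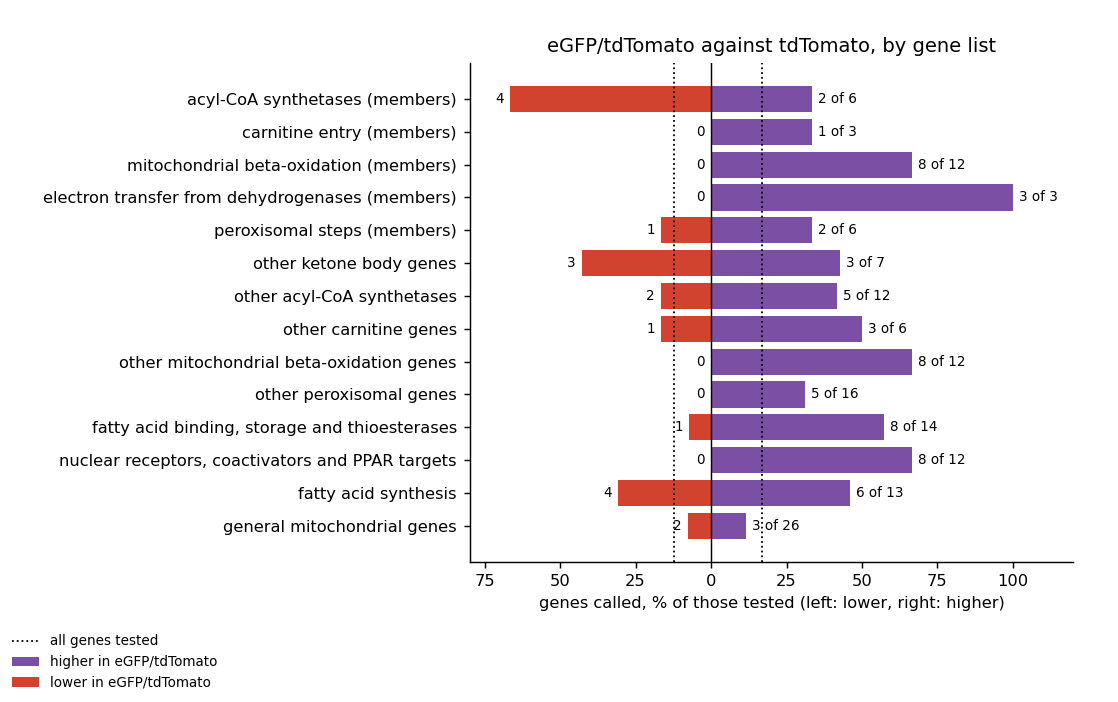
Share of genes called in eGFP/tdTomato against tdTomato, for each list with more than 1 gene, as a percent of the genes tested. Bars to the right are genes higher in eGFP/tdTomato and bars to the left genes lower, with the counts beside them, and dotted lines give the shares over all genes tested (16.8% and 12.4%). Mitochondrial beta-oxidation shows 8 of 12 genes higher and general mitochondrial genes 3 of 26.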

How the data were processed

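RNA-seq libraries of sorted cells from mouse spinal cord (12 libraries, 3 fractions of 4) were used. The authors deposited raw counts of reads per Ensembl gene, 1 table per library. The submitters' processing notes name STAR and HTSeq and the builds GRCm38 and mm10. Versions, strand setting and annotation release are not given in the sources used here. Each table held whole-number counts for 53465 genes and 5 rows that name no gene, which took 36.0 to 71.5% of the reads and stayed out of library sizes and tests. GENCODE M21 held 53360 of the gene identifiers, all 32 genes of the pathway among them. The 37 mitochondrially encoded genes were at 0 in every library. No libraries were identical.

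A single edgeR model (version 4.0.16, R 4.3.3) covered the 12 libraries with fraction as its sole term. It used TMM factors, filterByExpr grouped by fraction and robust quasi-likelihood F-tests, with Benjamini-Hochberg adjustment across the 29361 genes kept. Standard errors were taken as the absolute log2 fold change divided by the square root of F. Levels are CPM on TMM-scaled library sizes. Levels per length used the GENCODE principal transcript, with the union of exons as the second choice. Intergenic and intronic reads lower the depth in genes, and the SD over libraries gives the precision of a level.

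Alternatives were RLE factors, plain library sizes, a filter of 1 CPM in 4 libraries, no filter, DESeq2 1.42.0, limma-voom (limma 3.58.1), only the fractions compared, a replicate block, a covariate for the share of reads outside genes, and leaving out each library or each replicate number. The fit was tested on simulated counts. Values of all libraries are given for Ppara, Bdh1, Cpt1a, Cpt1c, Acsbg1, Acsl6, any gene called between eGFP/tdTomato and eGFP, and the 2 genes per role with the largest log2 fold change in eGFP/tdTomato against tdTomato. Hadha and Hadhb were added after their values were seen. From other lists, at most 4 genes with the largest log2 fold change among those called were named, with the values of all libraries of Abcd2 chosen afterwards. The genes and lists were chosen with earlier results of these data known. Promoter windows came from RefSeq (GRCm38.p6).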

Additional observations from a re-analysis of the deposited data

Results flagged for a closer look

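In 6 of the 96 sets of 4 libraries (32 genes in 3 fractions), 1 library lay farther from the other 3 than Dixon's 95% limit allows, where chance gives about 1 in 20. Of these, 4 were high values in tdTomato replicate 3: Acsl1 at 472 CPM (the others 329 to 339), Cpt1c at 82.6 CPM (51.5 to 55.7), Acads at 16.1 CPM (11 to 11.4) and Echs1 at 123 CPM (102 to 103). Acsl3 was low in tdTomato replicate 5, at 468 CPM (671 to 694). Acox3 was high in eGFP replicate 3, at 51.1 CPM (26.2 to 29.4). The library numbered 3 held the highest eGFP/tdTomato value of 21 of the 32 genes, the highest eGFP value of 20 and the highest tdTomato value of 18.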

How the results depend on the processing

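For the 32 genes, 2400 results were recomputed under 25 alternatives. Of these, 2216 kept direction and side of the threshold, 62 lost a call and 64 gained one. Another 57 changed sign while uncalled both before and after, and 1 turned. Hsd17b4 in eGFP against tdTomato became 0.36 (log2; adjusted p = 0.0437) with the covariate for reads outside genes, where it had been uncalled, and the cause was not tested. All 5 genes lower and 13 of the 17 higher in eGFP/tdTomato than in tdTomato were called under every alternative, as were all 7 lower and 12 of the 13 higher in eGFP than in tdTomato. None of the 3 called between eGFP/tdTomato and eGFP was. Their count was 1 with only these fractions in the fit (8 libraries, fewer residual degrees of freedom) and 6 with the covariate, 1 to 3 with 1 library left out and 0 to 2 with the 3 libraries of a number left out. The count lower in eGFP/tdTomato than in tdTomato was 8 with the filter of 1 CPM in 4 libraries, with DESeq2 and with only these fractions, and 5 to 8 with 1 library left out. The count lower in eGFP than in tdTomato was 11 with that filter, 7 to 11 with 1 library left out and 12 without the libraries numbered 3. The causes were not tested. Libraries with the same number correlated in their deviations at -0.226 to 0.596, with 8 of 12 pairs over 0.1 (10 of 36 for different numbers). All pairs numbered 3 or 5 passed 0.1, but not all numbered 1 or 2, so the numbers were not taken as pairing. With the replicate block 3 genes were higher and 0 lower in eGFP/tdTomato against eGFP, 18 higher and 6 lower in eGFP/tdTomato against tdTomato, and 13 higher and 9 lower in eGFP against tdTomato. The block added calls of Acox3 (higher, adjusted p = 0.0128) and Cpt1c (lower, 0.00672) in eGFP/tdTomato and of Cpt1c (lower, 0.00761) and Bdh1 (lower, 0.0325) in eGFP, each against tdTomato. Depth is lowest in eGFP library 1 (12.6 in units of 1e6 reads in genes), and a level under 1 CPM, as Ppara in tdTomato, rests on few reads.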

Other observations

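Of 14 genes of fatty acid binding, storage and thioesterases, 8 were higher and 1 lower in each astrocytic fraction than in tdTomato, and none was called between eGFP/tdTomato and eGFP. Among all genes tested, 16.8% were higher and 12.4% lower in eGFP/tdTomato than in tdTomato, and 20.4% and 14.9% in eGFP. Fabp7, the fatty acid-binding protein of radial glia and astrocytes, averaged 3960 ± 595 CPM in eGFP/tdTomato, 2390 ± 632 CPM in eGFP and 215 ± 45.7 CPM in tdTomato (SD, n = 4 each). Acot7, a cytosolic acyl-CoA thioesterase best known from neurons, was the gene lower in the astrocytic fractions, with 16.7 ± 3.17 CPM in eGFP/tdTomato, 10.7 ± 3.58 CPM in eGFP and 386 ± 58.2 CPM in tdTomato. Another thioesterase gene, Acot11, averaged 53.9 ± 12.3 CPM in eGFP/tdTomato, 36.8 ± 15.2 CPM in eGFP and 1.02 ± 0.502 CPM in tdTomato.

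Of 13 genes of fatty acid synthesis, elongation and desaturation, 6 were higher and 4 lower in eGFP/tdTomato than in tdTomato, and 5 were higher and 4 lower in eGFP. The shares over all genes tested were 16.8% and 12.4% in the first comparison, and 20.4% and 14.9% in the second. Elovl7, an elongase of long saturated chains, averaged 12.5 ± 2.09 CPM in eGFP/tdTomato, 4.31 ± 0.526 CPM in eGFP and 781 ± 153 CPM in tdTomato (SD, n = 4 each). It was 2.89-fold higher in eGFP/tdTomato than in eGFP (adjusted p = 0.000366), and Elovl6 was 1.81-fold higher (adjusted p = 0.0388). The call held in 25 of 25 other settings for Elovl7 and in 9 of 25 for Elovl6, whose adjusted p reached 0.299. Both were lower in eGFP/tdTomato than in tdTomato, Elovl7 by 62.5-fold (adjusted p = 1.37e-10) and Elovl6 by 5.60-fold (adjusted p = 2.46e-07). Scd1, a stearoyl-CoA desaturase, was 16.9-fold higher in eGFP/tdTomato (adjusted p = 4.89e-09) and 15.6-fold higher in eGFP (adjusted p = 5.72e-09) than in tdTomato. In eGFP/tdTomato against eGFP, Elovl7 and Elovl6 moved in the direction of the oligodendrocyte marker sums (1500 to 3160 CPM in eGFP/tdTomato and 382 to 1270 CPM in eGFP libraries), and the part of those cells in it was not tested.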
